A study of Mus musculus with 2 samples.

Results

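The 39 genes described here encode the machinery that copies DNA, the regulators that start S phase and the proteins that carry cells through mitosis. They were chosen by name and not by a measured value, from 21938 protein-coding genes of the mouse annotation, with earlier results of these data known. Of the 39 genes, 21 act in DNA replication, 5 regulate the passage from G1 to S phase and 13 act in G2 and mitosis. Open chromatin was mapped by DNase-seq, in which the nuclease DNase I cuts DNA that nucleosomes leave exposed and the cut ends are sequenced. The tissue was urinary bladder of male B6CASTF1/J mice aged 14 days, first-generation hybrids of C57BL/6J and CAST/EiJ mice, with no treatment or engineered allele named in the labels. The label of replicate 1 speaks of 1 male and that of replicate 2 of 3 males together, both libraries carry the same donor label, and both fall into 1 group. No conditions were compared, so that each value is given per replicate and no test over samples was possible.

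Cells decide in G1 whether to divide. Cyclin and kinase activity then releases E2F transcription factors from the retinoblastoma proteins, and E2F target genes supply the replication machinery. Genes for mitosis are switched on later, by the MuvB complex with B-Myb and FoxM1, often through a cell cycle homology region (CHR) at the start site together with CCAAT boxes, the binding sequence of NF-Y. In cells that have stopped dividing, the DREAM complex, which contains MuvB with E2F4 and a retinoblastoma relative, holds both groups of genes down.

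All 39 promoters were open in both replicates. A promoter was called open where peaks of both replicates overlapped within 1 kb of any annotated transcription start site (TSS), which held for 66.1% of all protein-coding genes. The count was also 39 with the stricter peak lists, against 61.8% of all genes. Members had a median of 5 annotated start sites, against 3 over all protein-coding genes, and openness and signal were not adjusted for this. The deposited peak signal, a density on the authors' scale, measured how accessible a promoter was, and the strongest shared peak stood for each gene. Its median over the members was 7.13 in replicate 1 and 5.63 in replicate 2, against 5.01 and 4.19 over all 14500 open promoters. Of the 39 members, 28 lay above the median of all open promoters. In tissue of mixed cells, a lower signal in every cell and an open promoter in fewer cells cannot be told apart.

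The sequences below are E2F and CHR matches centred in shared footprints, because these motifs are the known elements of genes of S phase and of mitosis. A footprint is a short stretch inside open chromatin that DNase I cuts less than its flanks, and the deposited lists give only its position. Capitals mark the motif as it reads on the strand of the gene. The word exon marks a match that overlaps an annotated exon of any gene, not only of the gene named. The Mcm7 match was centred at -42 bp, before the nearest Mcm7 TSS. The sequences are those of RefSeq's GRCm38.p6 (build mm10), which represents C57BL/6J, so that the CAST/EiJ copy in these mice may differ. A match is a description of letters, not a proven binding site. The E2F motif was TTCCCGC or TTGGCGC on either strand, and its footprinted matches in replication promoters included these.
Mcm5 (chr8:75109323-75109373, plus strand, upstream of the first TSS): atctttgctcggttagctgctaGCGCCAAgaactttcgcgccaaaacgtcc
Mcm5 (chr8:75109338-75109388, plus strand, upstream of the first TSS): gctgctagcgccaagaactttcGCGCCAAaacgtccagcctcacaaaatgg
Mcm3 (chr1:20820258-20820282, minus strand, exon): tgggaagttTTGGCGCcaaggcggt
Mcm7 (chr5:138171848-138171872, minus strand, exon): cgacgtttcGCGCCAAtttcggttg
Orc6 (chr8:85299897-85299921, plus strand, exon): gcattgctcTTGGCGCgcatttctt
Cdt1 (chr8:122568039-122568063, plus strand, exon): actacctttTTGGCGCcatggcgca
Gins1 (chr2:150909577-150909601, plus strand, match not in an exon): tgagcctatTTGGCGCcaaagcgag
Rfc4 (chr16:23127704-23127728, minus strand, exon): cgttctgtgGCGGGAAccgcggtgc
Rrm2 (chr12:24708734-24708758, plus strand, match not in an exon): gactcttctTTCCCGCcaaagtgtc
Pole (chr5:110286334-110286358, plus strand, exon): gtggagagcGCGCCAAattctcccc

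The CHR motif was TTTGAA or TTCGAA on either strand. Its footprinted matches in mitotic promoters follow, and the 3 outside exons are those of Cdk1 (first line), Top2a and Mki67.
Cdk1 (chr10:69352956-69353006, minus strand): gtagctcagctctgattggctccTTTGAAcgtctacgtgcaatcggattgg
Cdk1 (chr10:69352913-69352936, minus strand): cgcggcgagTTTGAAactgctggc
Mki67 (chr7:135716468-135716518, minus strand): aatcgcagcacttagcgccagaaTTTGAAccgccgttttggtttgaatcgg
Bub1 (chr2:127831831-127831854, minus strand): cgcggggaaTTCGAAtcgccggcg
Ccnb2 (chr9:70421536-70421559, minus strand): ggcgcggtaTTTGAAtcgcggacc
Aurkb (chr11:69045639-69045662, plus strand): agcgggagaTTCGAAagcgtccgg
Plk1 (chr7:122159456-122159479, plus strand): agcgccgcgTTTGAAttcggggag
Top2a (chr11:99024354-99024377, minus strand): ttggtccatTTTGAAgattctccc
Foxm1 (chr6:128362954-128362977, plus strand): ggcgccaatTTCAAAcagcggaac

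CCAAT boxes in shared footprints upstream of the start site are shown for Aurka, Bub1 and Ccnb1, which with Cdk1 and Mki67 had the highest signals among mitotic genes with a CHR or CCAAT match in a footprint there.
Aurka (chr2:172370594-172370644, minus strand): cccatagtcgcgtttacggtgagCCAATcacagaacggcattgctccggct
Bub1 (chr2:127831874-127831924, minus strand): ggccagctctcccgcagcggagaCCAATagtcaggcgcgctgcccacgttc
Ccnb1 (chr13:100786571-100786608, minus strand): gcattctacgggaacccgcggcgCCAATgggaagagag

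Replication promoters were the more accessible of the 2 lists. The median signal of the 21 replication genes was 8.52 in replicate 1 and 6.56 in replicate 2. For the 13 mitotic genes it was 6.07 and 5.04. On the log2 scale the replication median lay above the mitotic median by 0.49 in replicate 1 and by 0.38 in replicate 2, a mean of 0.43 ± 0.08 (SD, n = 2) or 1.35-fold. The difference was larger than the spread between the replicates, but the lists overlapped widely. Replication genes ran from 2.71 to 12.6 and mitotic genes from 3.02 to 11.7 in the mean of both replicates. Of the replication genes, 17 of 21 lay above the median of all open promoters, as did 8 of 13 mitotic genes and 3 of 5 G1/S regulators.

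**Figure D1:**
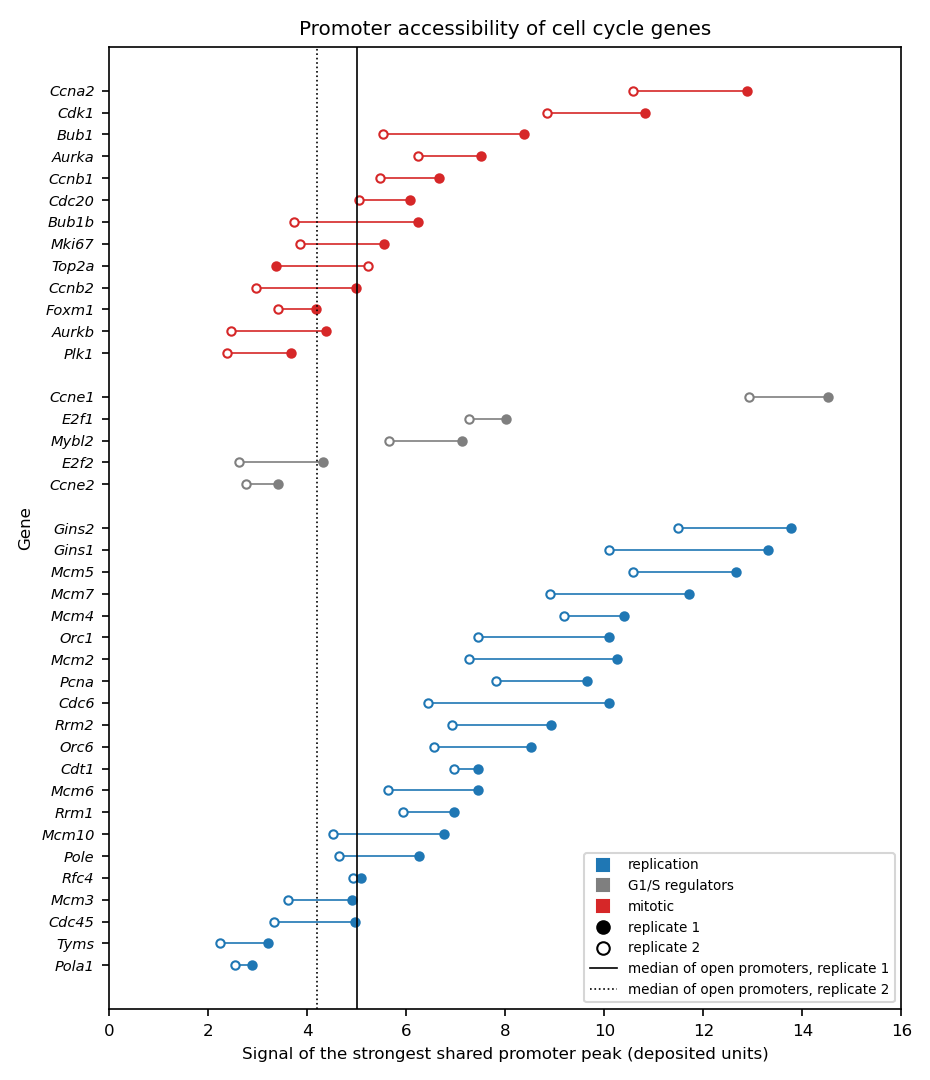
Signal of the strongest shared promoter peak (horizontal axis, deposited units) of the 39 genes (vertical axis), with replicate 1 as filled and replicate 2 as open circles and the medians of all open promoters, 5.01 and 4.19, as vertical lines. Filled circles lie to the right of open ones in every gene except Top2a, and the replication list reaches further right than most of the mitotic list.

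The MCM genes encode the hexameric helicase that unwinds DNA at the fork. Mcm5 had the highest signal of the 6, with 12.7 in replicate 1 and 10.6 in replicate 2 (11.6 ± 1.47, SD, n = 2), above 92.7% of open promoters. Mcm7 followed with 11.7 and 8.90 (10.3 ± 1.99), and Mcm4 with 10.4 and 9.19 (9.80 ± 0.86). These 3 exceeded the other helicase genes in both replicates, although Mcm2 lay close to Mcm4 in replicate 1. Mcm2 measured 10.3 and 7.27 (8.76 ± 2.11). Mcm6 gave 7.45 and 5.63 (6.54 ± 1.29). Mcm3 was the least accessible of the helicase genes, with 4.90 and 3.61 (4.26 ± 0.91), just under the median of all open promoters. The Mcm5 signal was more than 2-fold that of Mcm3 in both replicates, although the helicase holds equal numbers of both subunits.

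Loading of the helicase needs the origin recognition complex, Cdc6 and Cdt1. Orc1, its largest subunit, gave 10.1 in replicate 1 and 7.45 in replicate 2, and Orc6, the smallest, gave 8.52 and 6.56. Cdc6 gave 10.1 and 6.44 (8.27 ± 2.60), the widest spread among the replication genes. Cdt1 gave 7.46 and 6.97 (7.21 ± 0.34). All 4 licensing genes lay above the median of all open promoters in both replicates.

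Activation of the loaded helicase requires Cdc45 and the GINS complex, with Mcm10. Gins2 was the highest replication gene, with 13.8 and 11.5 (12.6 ± 1.63), above 95.5% of open promoters. Gins1 gave 13.3 and 10.1 (11.7 ± 2.28), above Mcm5 in replicate 1 and below it in replicate 2, and its strongest peak was centred at -629.5 bp from the nearest TSS. A second Gins1 peak, at 203.5 bp from a TSS further downstream, had 8.31 and 6.67. Cdc45, which completes the active helicase, gave 4.97 and 3.33 (4.15 ± 1.16) at a peak centred at -313.5 bp. A second Cdc45 peak, centred nearer a TSS at -84.5 bp, had 3.17 and 2.66. Mcm10, which helps the active helicase to move, gave 6.76 and 4.52. With the Gins1 peak nearer its start sites, the mean signal of Gins1 would be 7.49 in place of 11.7.

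The lowest replication promoters belonged to a polymerase gene and a gene of nucleotide supply. Pola1, the catalytic subunit of the polymerase that makes primers with primase, gave 2.89 in replicate 1 and 2.53 in replicate 2 (2.71 ± 0.25), above only 31.1% of open promoters. It is the member on the X chromosome (chrX:93632141-93632400), of which males have a single copy. Tyms, which makes thymidylate, gave 3.21 and 2.25 (2.73 ± 0.68). The order of Pola1 and Tyms differed between the replicates, so that they cannot be ranked. Pole, the catalytic subunit of the leading-strand polymerase, gave 6.25 and 4.64. Pcna, the sliding clamp that holds polymerases on DNA, was higher, with 9.64 and 7.81 (8.73 ± 1.30). Rfc4, part of the clamp loader, gave 5.09 and 4.92. The ribonucleotide reductase genes lay between these, at 6.97 and 5.93 for Rrm1, the large subunit, and at 8.93 and 6.92 for Rrm2, the small subunit that is made in S phase.

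G1/S regulators spanned almost the whole range. Ccne1, a cyclin that drives entry into S phase with Cdk2, had the highest signal of all 39 members, 14.5 in replicate 1 and 12.9 in replicate 2 (13.7 ± 1.13), above 97.2% of open promoters. Its paralog Ccne2 gave 3.41 and 2.76 (3.08 ± 0.46), above 34.8%. A similar contrast held for the E2F activators, with 8.02 and 7.27 at E2f1 and 4.31 and 2.63 at E2f2. The strongest E2f2 peak was centred at -642.5 bp from the nearest TSS, and with the start sites of basic transcripts alone the E2f2 mean was 1.82 in place of 3.47. Within each pair the members did not overlap between replicates. Mybl2, which encodes B-Myb, gave 7.13 and 5.66 (6.40 ± 1.04).

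Among mitotic genes the cyclin A gene stood highest. Ccna2, whose product acts in S phase and G2, gave 12.9 and 10.6 (11.7 ± 1.62), above 93.1% of open promoters. Cdk1, the kinase that starts mitosis, gave 10.8 and 8.84 (9.84 ± 1.41). The B cyclins that pair with Cdk1 were lower, Ccnb1 with 6.67 and 5.48 (6.07 ± 0.84) and Ccnb2 with 4.98 and 2.96 (3.97 ± 1.43). Cyclin A and Cdk1 promoters were thus above every other mitotic promoter in both replicates. Plk1, a kinase of mitotic entry and spindle assembly, had the lowest mitotic mean with 3.67 and 2.37 (3.02 ± 0.92). Foxm1, the transcription factor that acts on mitotic genes, gave 4.18 and 3.41 (3.79 ± 0.54).

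The aurora kinases differed from each other. Aurka, which acts at spindle poles, gave 7.50 and 6.24 (6.87 ± 0.89), whereas Aurkb, which acts at centromeres and in cytokinesis, gave 4.38 and 2.47 (3.43 ± 1.35). The spindle checkpoint genes also ran apart, with 8.39 and 5.54 for the kinase Bub1 and 6.24 and 3.73 for its relative Bub1b. Cdc20, which activates the ubiquitin ligase that ends metaphase, gave 6.07 and 5.04. Mki67, which encodes the proliferation marker Ki-67, gave 5.56 and 3.85 (4.70 ± 1.2) and lay near the middle of all open promoters, above 50.8% of them.

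Top2a behaved unlike all other members between the replicates. It encodes the topoisomerase that untangles chromosomes before they separate. Its signal was 3.37 in replicate 1 and 5.22 in replicate 2, while the other 38 members were higher in replicate 1. A higher signal in replicate 2 was seen at 18% of open promoters. After each replicate was divided by its median over shared regions, the log2 ratio of replicate 1 to replicate 2 was -1.02 for Top2a and between -0.34 and 0.43 for the other 38. Only 61 of 14500 open promoters, or 0.421%, had a ratio as low or lower. Over the members the median scaled ratio was -0.02, against -0.14 over all open promoters. What sets Top2a apart was not tested.

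**Figure D2:**
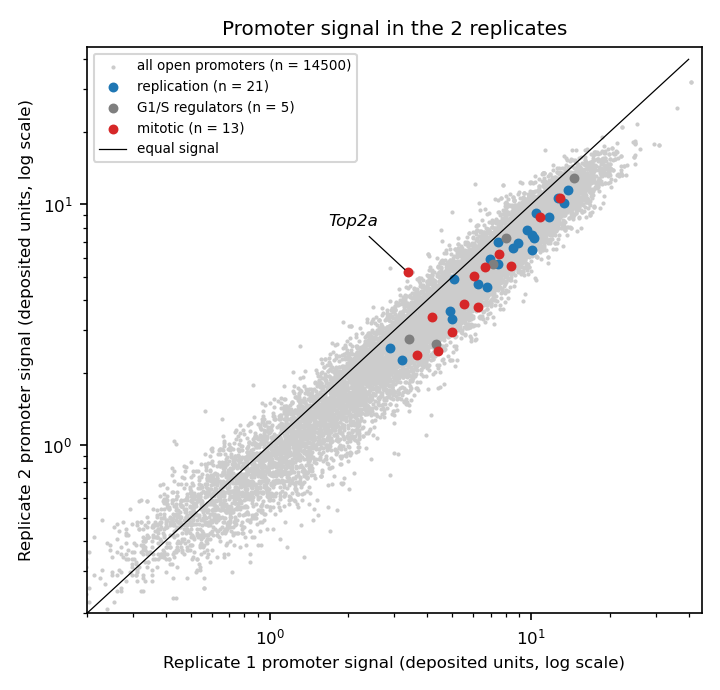
Promoter signal of replicate 1 (horizontal, log scale, deposited units) against replicate 2 (vertical, log scale) for all 14500 open promoters in grey and the 39 members in colour, with a line of equal signal. Top2a, at 3.37 and 5.22, is the member above the line, and the other 38 lie below it.

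The promoters of 9 members faced the TSS of another protein-coding gene on the opposite strand within 1 kb, as did 12.3% of all protein-coding genes. Of these, 7 were replication genes. Mcm4 faced Prkdc, which encodes a kinase of DNA repair, and Mcm7 faced Ap4m1, an adaptor protein gene. Orc1 faced Prpf38a, a splicing factor gene, and Orc6 faced Vps35, a gene of endosomal sorting. Cdc45 faced Ufd1, a gene of ubiquitin-dependent degradation, Gins1 faced Abhd12, a lipase gene, and Pole faced Pxmp2, a peroxisomal membrane protein gene. The 2 mitotic genes were Aurka, which faced Cstf1, a gene of RNA 3' end processing, and Foxm1, which faced Rhno1, a gene of the replication checkpoint. A peak between such a pair belongs to both genes, and its signal cannot be divided between them.

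Shared footprints lay at every member promoter. All 39 had at least 1 within 1 kb of a TSS, as did 93.6% of all open promoters, and the fewest at a member was 2. The median was 5, against 4 over all open promoters. These counts were not adjusted for the number of start sites, a median of 5 at members and 3 at all protein-coding genes. Gins1 had the most, 11, followed by Mcm7 with 9. Mcm5, Rrm2, Ccne1 and Ccne2 had 8 each. Medians by list were 5 for replication genes, 7 for G1/S regulators and 4 for mitotic genes. Relative to the length of the promoter peaks, members held 1.5 footprints per 100 bp and all open promoters 1.25. Counted in single replicates, the member medians were 8 in replicate 1 and 7 in replicate 2.

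Motifs were counted in a window from 200 bp before to 50 bp after the TSS nearest the strongest peak. They were also counted where a match was centred in a shared footprint within 1 kb of any TSS of the gene. A footprinted match may therefore lie at another start site than the window. Footprinted shares were not adjusted for the number of start sites, which was higher in the median at members than at all protein-coding genes. E2F matches were present in the windows of 10 of 21 replication genes and 4 of 13 mitotic genes, against 11.6% of open promoters. In shared footprints they were present in 9 replication and 3 mitotic promoters, against 6.56% of open promoters. The replication genes with a footprinted match were Mcm3, Mcm5, Mcm7, Orc6, Cdt1, Gins1, Rfc4, Rrm2 and Pole. Together they held 14 matches, of which 10 were centred within 25 bp of an annotated TSS. This distance was to the nearest of all start sites of the gene, and the count was not made over all open promoters. Of the 18 E2F matches in replication windows, 11 (61.1%) were centred within 50 bp of the TSS, against 41.1% over all open promoters. The footprinted matches of Mcm5, at -221 and -206 bp, lay further upstream. The footprinted Gins1 match, -5 bp from a start site downstream of the main one, lay near the weaker of its 2 peaks. The windows of Gins1, Cdc45 and E2f2 did not reach their strongest peaks, centred at -629.5, -313.5 and -642.5 bp. In Mcm3 and Gins1 a palindrome was counted as 2 overlapping matches, 1 on each strand.

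A second set of E2F words, which differs in part from the first, was also counted. With 8 letters (TTTCCCGC, TTTCGCGC, TTTGCCGC or TTTGGCGC), 10 of 21 replication windows held a match and 1 of 13 mitotic windows, against 3.8% of open promoters. In shared footprints the counts were 8 and 0, against 2.33%. TTTCGCGC and TTTGCCGC contain neither 7-letter word, so that the sets mark partly different promoters. In their windows, Mcm4 and Orc1 had the 8-letter match alone, and Rfc4 and Rrm1 the 7-letter match alone. Of the mitotic promoters with the 7-letter match in a footprint, Ccnb1 and Foxm1 had it overlapping a CCAAT box, and Cdk1 did not. Across the windows of all members, 3 of 23 E2F matches overlapped a CCAAT box, the other 1 being that of Mcm7. Outside the footprint lists, Cdc6, Mcm6, Rrm1 and Pola1 held E2F matches in their windows. Among the G1/S regulators, E2f1 had 1 in its window. In the 100 bp before the TSS alone, 4 of 21 replication promoters held the 7-letter match, against 4.66% of open promoters. With the whole match inside a footprint the count was 4 of 21, against 5.08%.

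CHR matches were more frequent in the mitotic than in the replication list. They were present in 11 of 13 mitotic windows and 3 of 21 replication windows, against 9.46% of open promoters. The replication windows were those of Mcm2, Cdc45 and Gins1, and those of Cdc45 and Gins1 did not reach the strongest peak. In shared footprints CHR matches were present in 8 of 13 mitotic and 0 of 21 replication promoters, against 2.38%. The 8 were Ccnb2, Cdk1, Plk1, Aurkb, Bub1, Top2a, Mki67 and Foxm1. Of the 19 CHR matches in mitotic windows, 11 (57.9%) were centred within 50 bp of the TSS, and 9 (47.4%) lay in a shared footprint. Over all open promoters the shares were 31.3% and 12.9%. Those of Ccnb2, at -0.5 bp, and of Aurkb and Foxm1, both at -1.5 bp, lay on the start site itself. In Aurka, Cdc20 and Bub1b the CHR match was not in a shared footprint. Ccnb1 and Ccna2 had none in the window. Top2a had 4 CHR matches and 5 CCAAT boxes, more of both than any other member. In the 100 bp before the TSS alone, 3 of 13 mitotic promoters held a CHR match, against 3.05% of open promoters. A match lay wholly inside a footprint in 5 of 13, against 1.55%.

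**Figure D3:**
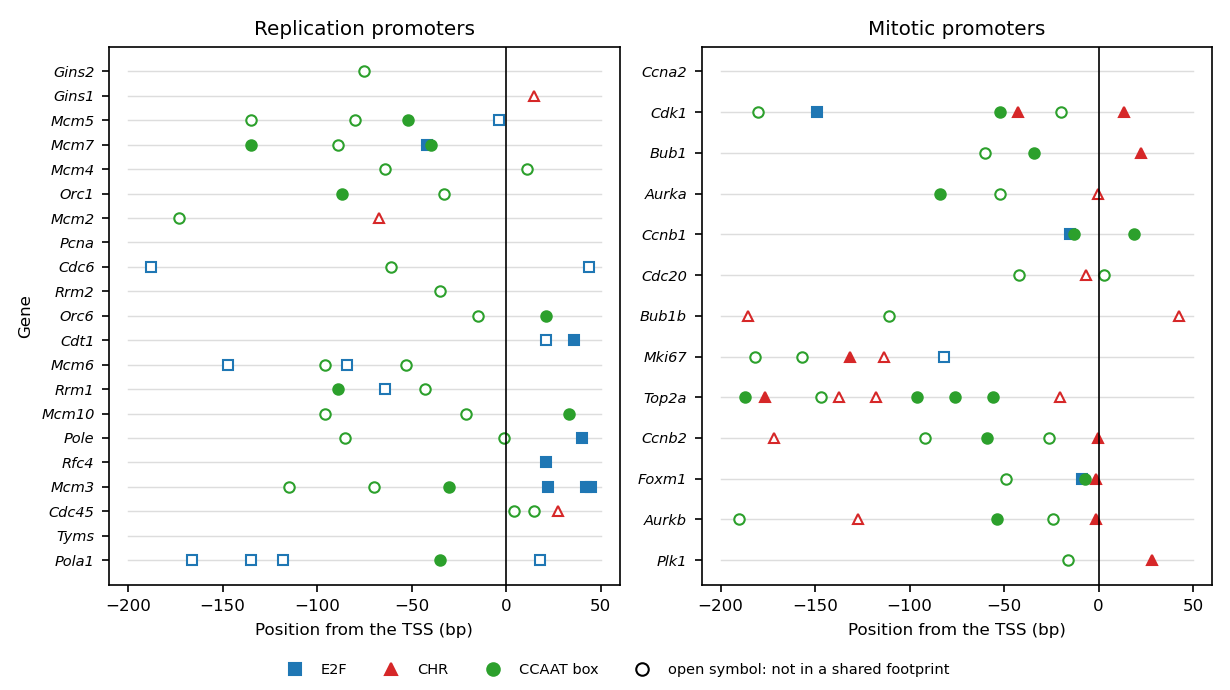
Positions of E2F (squares), CHR (triangles) and CCAAT (circles) matches from 200 bp before to 50 bp after the TSS (horizontal axis, bp) in 21 replication and 13 mitotic promoters (vertical axis, ordered by mean signal), filled where the match is centred in a shared footprint. CHR matches lie in 11 mitotic and 3 replication promoters, and E2F matches in 10 replication and 4 mitotic ones.

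CCAAT boxes were frequent in both lists. The letters CCAAT, read on either strand, were present in 16 of 21 replication and 12 of 13 mitotic windows, against 34.1% of open promoters. In shared footprints they were present in 10 and 9, against 15.6%. With the whole match inside a footprint the replication count was 6, against 12.6%. At least 2 CCAAT boxes were present in 10 of 13 mitotic and 11 of 21 replication windows, against 12.3% of open promoters. CCAAT and CHR were also counted together. All 11 mitotic windows with CHR held CCAAT too, so that the joint count equals that of CHR alone. Both stood in the same window in 11 of 13 mitotic (84.6%) and 2 of 21 replication promoters, against 3.92% of open promoters. The closest 2 CCAAT boxes were 32 bp apart from centre to centre in Ccnb1, Cdk1 and Aurka, 33 bp in Ccnb2 and 30 bp in Aurkb. In the other mitotic promoters with 2 or more, this spacing ran from 20 bp in Top2a to 45 bp in Cdc20. Ccna2, the most accessible mitotic promoter, had neither motif in its window, which held 5 Sp matches.

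The other 6 motifs were counted in the same way. MYB matches (AACGG or AACTG) were present in 10 of 21 replication and 9 of 13 mitotic windows, against 44.4% of open promoters, and 2 of the members' 23 CHR matches overlapped one. In shared footprints the MYB counts were 2 and 5, against 16.9%. Matches to the Sp motif (GGGCGG or GGGTGG), the binding sequence of Sp1 and its relatives, were present in 15 of 21 and 11 of 13 windows, against 75.1%. In shared footprints they were present in 18 of 21 and 8 of 13, against 59.5%. All 5 G1/S regulators held a footprinted Sp match, and the Ccne1 window had 5 of them.

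The ETS motif (CCGGAAG) was present in 6 replication and 2 mitotic windows, against 15.9%, and in footprints of 4 and 0, against 9.85%. NRF1 (GCGCATGC), named for a factor of mitochondrial and housekeeping genes, was present in 1 replication and 0 mitotic windows, against 4.96%, and in footprints of 2 and 0, against 5.86%. The cAMP response element (TGACGTCA or TGACGCA) was present in 1 and 2 windows, against 6.41%, and in footprints of 1 and 2, against 5.78%. AP-1 (TGAGTCA or TGACTCA), the motif of the Fos and Jun factors, was in no member window, against 2.63%, and in no member footprint, against 1.01%. Absence of a match says only that these letters were not in the window.

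**Figure D4:**
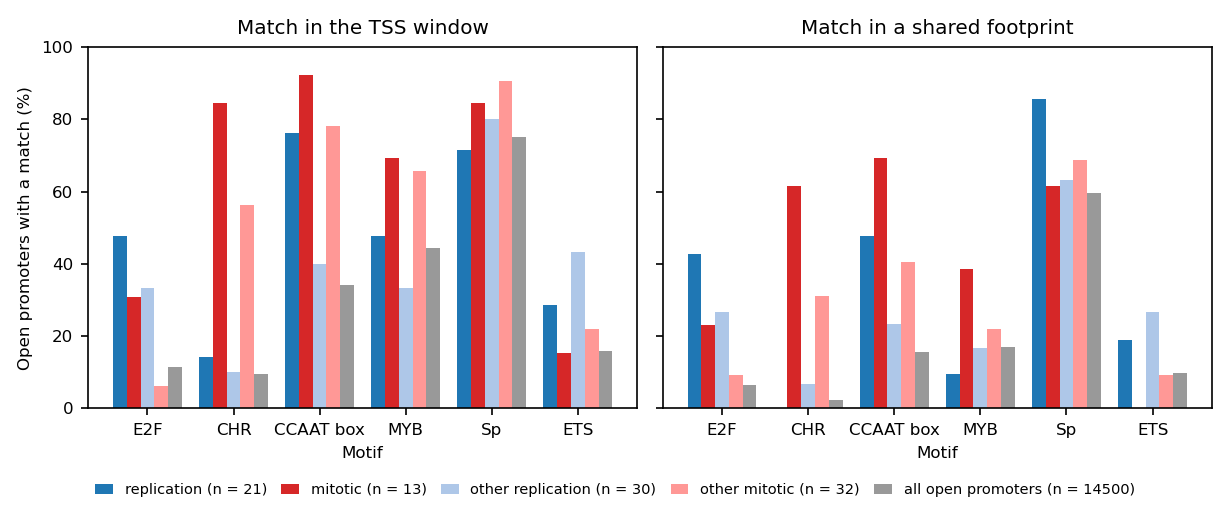
Share of open promoters (vertical axis, %) with a match to each of 6 motifs (horizontal axis) in the TSS window (left) and in a shared footprint (right), for replication and mitotic members, other genes of both kinds and all open promoters. The largest excess over all open promoters is that of CHR in the mitotic list, 84.6% against 9.46% in the window and 61.5% against 2.38% in footprints.

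Further genes of the same pathways showed which of these differences extended beyond the members. Against 66.1% of all protein-coding genes, all 30 other replication genes and all 32 other mitotic genes had an open promoter. Their median signals were 7.14 and 7.34 in replicate 1, and 6.67 and 5.60 in replicate 2. The higher accessibility of replication genes was therefore not seen in replicate 1 of these lists. The highest were Pold1 and Pold3, subunits of the lagging-strand polymerase, with means of 14.9 and 13.5, and Orc4, an origin recognition subunit, with 11.8. Among mitotic genes the highest were Kifc1, a spindle motor, with 12.4, Ect2, which acts in cytokinesis, with 11.8, and Prc1, which bundles spindle microtubules, with 11.1. CHR matches were present in 18 of 32 other mitotic windows and 10 footprinted promoters, and in 3 and 2 of the 30 other replication promoters. Over all open promoters the CHR shares were 9.46% and 2.38%, and the windows of other replication genes (10%) lay near the first. Of the 20 CHR matches in other mitotic windows, 19 lay within 50 bp of the TSS. E2F matches were present in 10 of 30 other replication and 2 of 32 other mitotic windows, and in footprints of 8 and 3. The E2F shares over all open promoters were 11.6% and 6.56%, and the windows of other mitotic genes (6.25%) lay below the first. The 8-letter E2F motif was present in 4 of 30 and 1 of 32 windows, against 3.8% of open promoters. In footprints it was present in 1 and 1, against 2.33%, so that its difference between the member lists was not seen there. CCAAT boxes divided these lists more than the members, with 12 of 30 (40%) and 25 of 32 (78.1%) windows, against 34.1% of open promoters. The other replication genes thus lay near the share of all open promoters. CHR with CCAAT was present in 16 of 32 other mitotic windows, against 3.92% of open promoters.

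Upstream regulators were open throughout. All 16 genes of the E2F, retinoblastoma and MuvB families had an open promoter, and the highest were E2f3 (11.4), E2f8 (10.0) and Rbbp4 (8.50), a histone-binding MuvB subunit. All 13 G1 cyclins, kinases and inhibitors were open too, led by the inhibitor Cdkn2d (16.5), the kinase Cdk4 (11.0) and the inhibitor Cdkn2b (7.95). Relatives of the members that act mainly in the germ line or outside the cell cycle were open in 6 of 9 cases, a share near the 66.1% of all protein-coding genes. Ccnb3 and Aurkc, which act in meiosis, had no promoter peak in either replicate, and Mcmdc2, also a meiotic gene, had one in replicate 1 alone. Ccna1, the germ line cyclin A, gave a mean of 1.09, Plk5 1.31 and Cdc20b 2.27, each under its relative among the members, Ccna2 (11.7), Plk1 (3.02) and Cdc20 (5.56). Rrm2b, the ribonucleotide reductase subunit of cells that do not divide, gave 8.68, above Rrm2 at 7.92. The DNA repair helicases Mcm8 and Mcm9 gave 5.39 and 10.2, at promoters that face Trmt6 and Asf1a.

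The extent of open chromatin around the promoters lay near that of other genes in the median. The stretches at a false discovery rate (FDR) of 0.05 or lower within 1 kb of the TSS covered a median of 952 bp at members and 915.5 bp at all open promoters. The median was 965.5 bp for replication, 852.5 bp for mitotic and 1387.5 bp for G1/S genes. Shared peaks within 10 kb of the gene and over 1 kb from any TSS numbered a median of 1 at members and all genes. Of the members, 19 of 39 had 0, as did 9403 of 21938 protein-coding genes. Cdc6 and Aurkb had the most, 8 each, followed by E2f2 with 6. The windows at member start sites had a median GC content of 60.6%, against 62.9%, and 8.76 CpG per 100 bp, against 7.57.

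The tissue label was checked against marker promoters. Open promoters were found for 6 of 8 urothelial markers, a share near the 66.1% of all protein-coding genes. The other 2 were Krt20 and Trp63, which had a peak in replicate 1 alone. Smooth muscle markers gave 6 of 6 and stromal markers 4 of 4. In the mean of both replicates, the median signals of these open markers were 3.55 (urothelium), 1.90 (smooth muscle) and 2.27 (stroma). Over all open promoters the median was 4.61, and 1, 1 and 0 of the markers lay above it. Endothelial markers gave 2 of 4, with a peak in replicate 1 alone at Cdh5 and none at Pecam1. Blood and immune markers gave 1 of 6, with a peak in replicate 1 alone at Ptprc and Cd3e and none at Csf1r, Hba-a1 and Gata1. Of markers of liver (Alb, Apoa1), germ line (Ddx4, Sycp3), skeletal muscle (Myod1) and neurons (Neurod6), 0 of 6 had a peak in either replicate. Which of these cell types the signal at the 39 promoters came from was not tested. Peaks numbered 139821 in replicate 1 and 82225 in replicate 2. Within 0.01 steps, every signal was a whole multiple of a step, 0.00521 in replicate 1 and 0.00799 in replicate 2, and the member promoters held 555 to 2789 such steps in replicate 1 and 281 to 1616 in replicate 2.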

How the data were processed

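DNase-seq of mouse urinary bladder was available for 2 libraries of 1 group. Peak signal is the authors' density per peak in the deposited lists, normalized in a way not given in the sources used here. False discovery rates, a kind of q-value (p-value adjusted over positions), are those of the deposited track, which lists 0.05 or lower. Deposited footprints carried 1 constant value and were used as positions only. Nuclei were isolated from tissue, per the labels' protocols, and the build is mm10 per the labels, with aligner and callers not given in the sources used here.

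Peaks of both libraries that overlapped by at least 1 bp formed 73164 shared regions, and footprints likewise 114331. Each shared region or footprint spans the union of its parts. Start sites came from GENCODE M21 and sequence from RefSeq GRCm38.p6. Position 0 is the TSS base. A footprinted match had its centre in a shared footprint. Per-gene signals are given as mean and SD of 2 replicates, and log2 values have no pseudocount. Signal steps show relative depth only, and absolute depth is unknown. The scripts used Python 3.11.15, numpy 2.4.6, pandas 2.3.3 and matplotlib 3.10.9. Tested on simulated data, they found 200 of 200 promoters planted among 21938 genes and 200 of 200 planted motifs in 2000 windows. The planted promoters had a single start site far from others, and the planted motifs lay in random letters. Genes with several start sites, promoters facing another gene and joined footprints were not tested in this way.

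The members and all gene lists, motifs and markers were chosen with earlier results of these data known. All 39 members are named. Of the other pathway lists the 3 highest promoters, and of these and the marker lists those without a shared peak, are named, with all paralogs and all genes facing a member promoter. Sequences were those with a footprinted E2F (replication) or CHR or CCAAT (mitotic) match upstream of the first TSS, up to 5 genes of each by mean signal. The sites of at most 25 bases were added after their values were seen. Alternatives were the stricter lists, the stronger 50% of peaks, other windows, flanks, start sites, motif forms, scalings, averaging, list limits and each replicate alone. All comparisons are descriptions of 2 libraries.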

Additional observations from a re-analysis of the deposited data

How the results depend on the processing

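All 39 promoters were open with a window of 500 bp, basic transcripts, stronger peaks and stricter lists. They were also open with a 2500 bp window, which the 1 kb result fixes in advance. Each replicate alone gave 39 too, which was nearly fixed, since a shared peak needs both. The log2 difference between replication and mitotic signal stayed positive in every alternative. It became 0.55 with summed peaks, 0.29 without promoters near another gene's TSS, 0.62 with replicates scaled and then averaged per gene and 0.52 without Top2a. Averaging per gene without scaling gave 0.60, and scaling alone cannot change the value within a replicate. The last 2 alternatives were chosen after seeing the data. Leaving out members with a peak over 250 bp from the TSS, also added then, left 0.43, and each replicate alone gave 0.38 to 0.49. Of single members, Gins1 became 7.49 with 500 bp windows or basic transcripts, and E2f2 became 1.82 with basic transcripts, since a weaker peak then stood for the gene.

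Median footprints became 4 within 500 bp and 7 to 8 with each replicate alone. In the 100 bp before the TSS, E2F was present in 4 replication promoters (4.66% of open promoters) and CHR in 3 mitotic and 1 replication promoter (3.05%), a window that leaves out matches after the TSS. With matches wholly inside footprints, E2F was present in 4 replication (5.08% of open promoters), CHR in 5 mitotic (1.55%) and CCAAT in 6 replication promoters (12.6%). Each replicate's footprints alone gave 0 to 2 replication promoters with CHR. The 8-letter E2F motif gave 1 mitotic window and 0 footprinted mitotic promoters. Distal peaks had a median of 2 within 50 kb (3 over all genes) and 0 with the stricter lists (0 over all genes). Without scaling, the median log2 ratio of the replicates at members became 0.37 (0.25 over all open promoters), with the sign turned. Accessible width became 699 bp at an FDR of 0.001 and 776 bp within 500 bp (709 and 758.5 bp over all genes). The other 51 values stayed within their limits, which for signals were the SD of the 2 replicates. For signals, each replicate alone could hardly leave that limit, because the main value comes from both. The counts of open promoters described above as fixed or nearly fixed are also among the 51. No paired analysis was possible because both libraries belong to 1 group. Signal steps of replicate 2 were 1.54 times those of replicate 1 and the depth of neither library is known.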
